A study of Mus musculus with 34 samples.

Results

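Acyl-CoA thioesterases are represented here by 8 genes, Acot1, Acot2, Acot3, Acot4, Acot5, Acot7, Acot8 and Acot12, read by 9 of the 41174 non-control probes on a whole-genome mouse array (8 of 16535 genes with a symbol). The members are the genes whose RefSeq accession in the scanner files maps to these symbols, with 1 probe each except Acot4, which has 2. The family was selected on 1 measured contrast: Acot3 was lower in goitrogen-exposed pups after thyroid hormone injection (hypo+ versus hypo), so that contrast is described below without a test. The series compared livers of C57BL/6 mouse pups at postnatal day 15 after short perturbations of thyroid hormone.

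Pups of the control group were euthyroid and received saline. Hyper pups received 1 intraperitoneal injection of 50 µg T4 and 5 µg T3 per 100 g body weight, 4 h before collection. Hypo pups were nursed by dams given 0.05% methimazole (MMI) and 1% sodium perchlorate in their drinking water for 3 days, and then received saline. Hypo+ pups had the same goitrogens and then a smaller injection of 20 µg T4 and 2 µg T3 per 100 g, again 4 h before collection, so hyper and hypo+ differ in dose as well as in starting state. The study set apart injected goitrogen pups with much higher circulating T4, and those are not analysed here. Goitrogens block hormone synthesis in the thyroid, and they were supplied in the drinking water of the dam. There were 4 control, 5 hyper, 4 hypo and 4 hypo+ male arrays, and 4 control, 5 hyper, 5 hypo and 3 hypo+ female arrays, each with liver RNA of 1 pup. Every pup sample was labelled with Cy5 and hybridised against the same universal mouse reference RNA in Cy3, with no dye swap. All values are log2 of Cy5 over Cy3 after loess normalization within each array. A value of 0 thus means the usual ratio for spots of that brightness, not a signal equal to the reference pool. A difference of 1 unit is a doubling, and levels of different probes cannot be compared.

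Acyl-CoA thioesterases hydrolyse fatty acyl-CoA to free fatty acid and coenzyme A, and so set the balance between activated and free fatty acids in each compartment. Acot1 is cytosolic, Acot2 is mitochondrial, and Acot3, Acot4, Acot5 and Acot8 are peroxisomal. Acot7 and Acot12 are unlike the clustered enzymes in structure. Several members are known in liver as genes induced by fasting and by the fatty acid receptor PPAR alpha.

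Acot1, Acot2, Acot3, Acot4 and Acot5 lie together on chromosome 12 between 83987861 and 84076024 (GRCm38.p6), in the order Acot2, Acot1, Acot4, Acot3, Acot5. Between gene ends, Acot3 is 7421 bp from Acot4, 8677 bp from Acot5, 34474 bp from Acot1 and 58267 bp from Acot2. Acot8 is on chromosome 2, Acot7 on chromosome 4 and Acot12 on chromosome 13. The clustered genes arose by duplication and are similar in coding sequence, so a probe designed for 1 of them may also bind RNA of another. The probe sequences were not analysed here and cross-hybridization was not tested.

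The 250 bases before the RefSeq start of Acot3 and of its nearest neighbours on either side are shown because Acot3 and Acot5 are adjacent and had the widest and the narrowest range over the arrays, with Acot4 on the other side of Acot3. The windows, all on the plus strand of GRCm38.p6, are chr12:84051894-84052143 for Acot3, chr12:84038129-84038378 for Acot4 and chr12:84069074-84069323 for Acot5. For Acot4 and Acot5 the start used for the window lies inside the gene span used for the distances above. Those spans begin at 84037254 for Acot4 and 84069077 for Acot5. Capitals mark a half-site of nuclear receptors, AGGTCA on either strand (TGACCT as read here), or 2 such half-sites in direct repeat with a 1-base or 4-base spacer and at most 2 mismatches.
Acot3: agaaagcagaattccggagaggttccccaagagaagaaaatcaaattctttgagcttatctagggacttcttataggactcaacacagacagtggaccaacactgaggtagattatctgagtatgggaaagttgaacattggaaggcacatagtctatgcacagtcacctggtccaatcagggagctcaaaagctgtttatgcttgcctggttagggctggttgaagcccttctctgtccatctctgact
Acot4: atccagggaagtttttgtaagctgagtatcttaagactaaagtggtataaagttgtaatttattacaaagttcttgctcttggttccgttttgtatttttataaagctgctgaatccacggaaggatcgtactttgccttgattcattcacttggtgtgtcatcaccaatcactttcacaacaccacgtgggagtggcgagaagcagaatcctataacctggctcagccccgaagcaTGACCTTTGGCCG
Acot5: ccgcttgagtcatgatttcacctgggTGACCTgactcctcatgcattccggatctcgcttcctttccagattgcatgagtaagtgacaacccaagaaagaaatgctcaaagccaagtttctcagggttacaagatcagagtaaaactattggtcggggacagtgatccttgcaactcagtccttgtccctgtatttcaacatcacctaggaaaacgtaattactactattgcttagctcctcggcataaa
The repeats with a spacer of 1 base and of 4 bases are the classical arrangements for PPAR and thyroid hormone receptor dimers. In RefSeq windows of 300 bases, which add 50 bases after the start, a half-site was found in 4 of the 8 members (Acot3, Acot4, Acot5 and Acot12) and in 18.1% of all 27025 genes with such windows. In Acot3 it lay after the start, at bases 19 to 24, outside the stretch printed. Acot5 had a second half-site across the start, at bases -1 to 5, of which only the first base is printed, in lower case. A repeat with a 1-base spacer was found in Acot4, from base -13 to base -1 with 2 mismatches and overlapping its half-site, and in Acot12 with 1 mismatch, against 4.4% of genes. No member window held a repeat with a 4-base spacer, found in 3.47% of genes. A match of letters is a description of the window and not a binding site.

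All 9 probes were measured on all 34 arrays with Cy5 median signals above the negative-control limit, which ran from 85.0 to 106 over the arrays. Acot3 gave Cy5 signals of 157 to 808 and a Cy3 reference signal of 25 to 58 that was well above background on 27 of 34 arrays, so its denominator was dim. Acot5 gave Cy5 signals of only 99 to 170, well above background on 27 of 34 arrays, and its ratios carry little information on liver RNA. Acot12, with Cy5 signals of 2748 to 9520 against 26 to 57.5 in the reference, and Acot8, with 1914 to 5131, were bright in liver. For the liver label, all 8 measured hepatocyte markers, albumin among them, were above the limit on all arrays, with a mean log2 ratio of 4.70 to 6.08. Pancreatic acinar markers averaged over 1.2 on 4 arrays, control males 832 and 522, control female 831 and hypo+ female 543, and adipocyte markers did so on 3 others, hypo male 311, hypo female 721 and hyper female 499. In whole liver, fewer cells of a type and less RNA per cell cannot be told apart.

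Acot3 had the widest range of the 9 member probes, spanning 2.84 log2 units over the 34 arrays. In control males the log2 ratios were 1.13, 1.52, 1.87 and 1.90. In hyper males they were 0.58, 0.67, 0.94, 1.07 and 1.16. Control pup 522 lay among the hyper males, and the other 3 controls lay above all of them. In hypo males the values were 2.20, 2.51, 2.55 and 2.66. In hypo+ males they were 0.86, 1.10, 1.17 and 1.35. Every hypo male was thus above every control male, and every hypo+ male was below every hypo male.

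Females showed the same order of groups at a higher level of Acot3. Many may be litter mates of the males, since 14 of the 20 litter prefixes in the animal numbers occurred in both sexes. The females may thus not be an independent repeat. Control females had 2.02, 2.09, 2.43 and 2.43. Hyper females had 1.10, 1.31, 1.55, 1.58 and 1.69. All 5 hyper females were below all 4 controls. Hypo females had 2.89, 3.03, 3.23, 3.31 and 3.42, and hypo+ females had 1.58, 1.93 and 2.10. No hypo female overlapped with a control or a hypo+ female, whereas 1 hypo+ female lay within the control range. The share of all probes whose groups separate in this way was not counted.

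**Figure D1:**
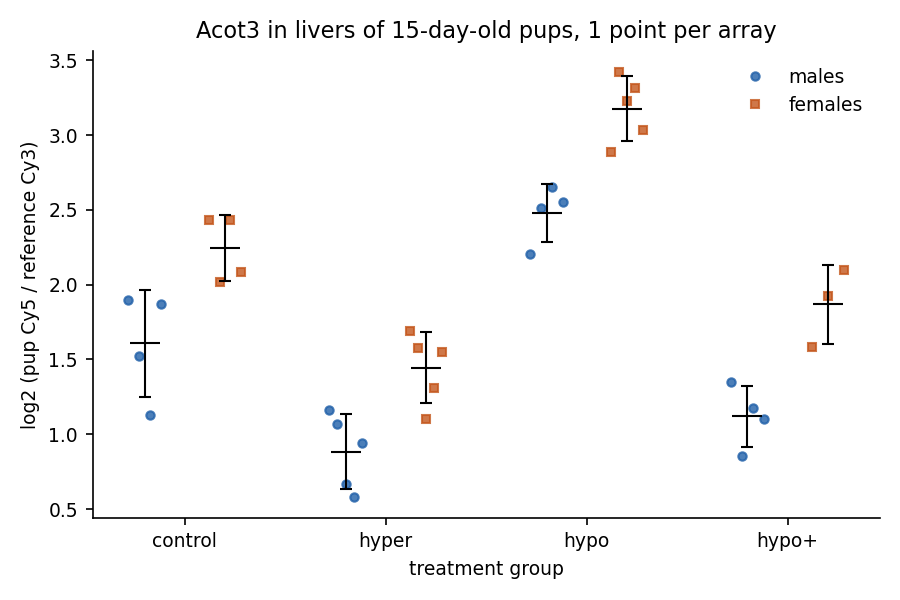
Log2 Cy5/Cy3 of Acot3 on each of the 34 arrays by treatment group, circles for males and squares for females, with black bars for the group mean and SD (n = 3 to 5). In both sexes the hypo pups are highest, the hyper and hypo+ means lie below the control mean, and each female mean lies above the male mean of the same treatment.

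Hyper versus control was the comparison of Acot3 that did not use the arrays on which it was chosen, other than for the pooled spread. Acot3 fell in hyper females, from 2.24 ± 0.22 (SD, n = 4) to 1.45 ± 0.24 (SD, n = 5), a log2 fold-change of -0.80 (SE 0.14, 1.74-fold lower, limma adjusted p = 0.0350). In hyper males the mean was 0.88 ± 0.25 (SD, n = 5) against 1.61 ± 0.36 (SD, n = 4), a log2 fold-change of -0.72 (SE 0.16), which did not pass after adjustment over all probes (limma adjusted p = 0.206). Of the 9 member probes, Acot3 alone was called in females, where 0.158% of all probes were called, and 0 of 9 were called in males, where the share was 0.0753%. At an unadjusted limma p under 0.05 there were 3 member probes in males and 2 in females, where 2.97% and 6.16% of all probes passed. The female call was lost in 8 of 14 other settings, among them median centring (-0.66, limma adjusted p = 0.166) and normexp background correction (-0.54, limma adjusted p = 0.468). It was also lost when any 1 of 7 arrays was left out (limma adjusted p of 0.0277 to 0.143 over all 17 omissions), and the male difference passed (-0.88, limma adjusted p = 0.0457) without control pup 522. Within slides that held both groups the hyper pup was lower on 4 of 4 slides in each sex, with differences of -1.33 to -0.44 in females and -0.93 to -0.45 in males.

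The 2 control males with pancreatic markers, pups 522 and 832, were also the 2 lowest control males for Acot3. Without both, the hyper male difference was -1.002 (limma adjusted p = 0.105), and the hypo male difference from control became 0.59 in place of 0.87. The part of the pancreatic RNA in these values was not tested.

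For hypo and hypo+ against control, Acot3 is described only, since these comparisons share arrays with the contrast that chose it. The hypo mean exceeded the control mean by 0.87 (SE 0.17) in males and 0.93 (SE 0.14) in females, 1.83-fold and 1.91-fold. The hypo+ mean was below the control mean by a log2 difference of -0.49 (SE 0.17) in males and -0.38 (SE 0.16) in females, with overlapping values in both sexes. Hypo+ against hypo, the selecting contrast, gave -1.36 (SE 0.17) in males and -1.31 (SE 0.15) in females, or 2.57-fold and 2.48-fold. On slides that held both groups the hypo+ pup was lower on 2 of 2 in each sex, with differences of -1.80 to -1.16 in males and -1.50 to -1.31 in females. Of the 9 member probes, Acot3 and 1 Acot4 probe in males and Acot3 in females were past the threshold in that contrast, where 0.369% of all probes in males and 0.556% in females were, and nothing is read from those counts.

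Acot3 was also higher in females than in males, a comparison made after the values had been seen. Over all 34 arrays, which include the hypo and hypo+ arrays that chose the gene, females exceeded males by 0.66 (SE 0.08) averaged over the 4 treatments, with mean log2 ratios of 2.22 in the 17 females and 1.49 in the 17 males. On the control and hyper arrays alone, which did not choose it, the difference was 0.60 (SE 0.12) and did not pass (limma adjusted p = 0.118). In the fit of all arrays Acot3 was past the threshold and the other 8 member probes were not, where 0.0996% of all probes were, and nothing is read from that count. Among control pups alone the difference was 0.64 (SE 0.17, limma adjusted p = 0.957). All but 1 of the 11 slides held 1 sex, and the exception held hypo+ male 363 and hypo+ female 601. Beyond that pair, slide and sex could be compared only through the scan sessions. Within the 4 scan batches that held both sexes under the same treatment, the difference was 0.77, 0.74, 0.59 and 0.62. The first of the Acot4 probes, A_51_P396141, was higher in females by 0.38 (SE 0.09, limma adjusted p = 0.109), and the remaining 7 member probes differed by -0.00 to 0.17.

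The response to treatment was not shown to differ between the sexes for any member. Of the 41174 interaction terms 0 passed in each of hyper, hypo and hypo+ versus control, and 0 of 9 member probes had an unadjusted limma p under 0.05 in any of them. For Acot3 the female minus male difference in the hyper log2 fold-change was -0.08, with a 95% interval of -0.53 to 0.38. Pups of both sexes may come from the same litters, since 14 of the 20 litter prefixes in the animal numbers occurred in both.

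Acot4, which hydrolyses succinyl-CoA and dicarboxylic acyl-CoAs in peroxisomes, lay next to Acot3 in the genome and ran in the same direction at a smaller size. With probe A_51_P396141, control males had 0.82, 1.16, 1.31 and 1.34, hyper males 0.68, 0.91, 0.95, 0.98 and 1.04, hypo males 1.32, 1.40, 1.47 and 2.01, and hypo+ males 0.75, 0.84, 0.92 and 0.99. The female values of this probe were 1.16, 1.37, 1.73 and 2.15 in control, 1.05, 1.13, 1.18, 1.37 and 1.39 in hyper, 1.34, 1.62, 1.77, 2.06 and 2.21 in hypo, and 1.21, 1.30 and 1.64 in hypo+. All hypo+ males were below all hypo males, and the groups overlapped in every other comparison with this probe. The direction was not particular to Acot3 and Acot4. The hyper means of Acot1 and Acot2 also lay below control and their hypo means above it in both sexes, though Acot2 in hyper pups by only -0.07 and -0.04.

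The second Acot4 probe, A_52_P215170, also placed the hypo mean above, and the hyper and hypo+ means below, the control mean in both sexes. Its log2 fold-changes for hyper versus control were -0.49 (SE 0.19) in males and -0.45 (SE 0.23) in females, beside -0.25 (SE 0.13) and -0.38 (SE 0.19) with the first probe. For hypo versus control they were 0.48 (SE 0.20) in males and 0.39 (SE 0.23) in females, beside 0.39 (SE 0.14) and 0.20 (SE 0.19). Neither probe passed the adjusted threshold in any comparison with control (limma adjusted p from 0.668 to 1.00). For hypo+ versus hypo, described without a test, the 4 values were -0.67 and -0.75 in males and -0.42 and -0.49 in females. The reference signal of A_52_P215170 was well above background on only 2 of 34 arrays.

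Among the other clustered genes, Acot1, the cytosolic long-chain enzyme, was low in hyper pups. Control males had -1.13, -0.49, -0.44 and -0.33, and hyper males -1.32, -0.97, -0.96, -0.91 and -0.90. Only control pup 832, the lowest of its group for Acot1 and 1 of the pups with pancreatic markers, lay inside the hyper range. Control females had -0.89, -0.75, -0.61 and -0.60, and hyper females -1.32, -1.31, -1.29, -1.04 and -0.77. The difference was -0.41 (SE 0.17, limma adjusted p = 1.00) in males and -0.43 (SE 0.12, limma adjusted p = 0.356) in females, so neither was called. Hypo pups differed from control by 0.10 (SE 0.18) in males and 0.25 (SE 0.12) in females, with overlapping values.

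Acot2, the mitochondrial enzyme, did not share the low values in hyper pups. Its difference was -0.07 (SE 0.13) in males and -0.04 (SE 0.08) in females. In hypo females the values were -0.34, -0.32, -0.31, -0.24 and -0.20, all above the control values of -0.77, -0.51, -0.50 and -0.41, a difference of 0.27 (SE 0.08) that was not called (limma adjusted p = 0.503). In males the difference was 0.29 (SE 0.14, limma adjusted p = 0.970), with overlap. Nothing is read from the separation in females, since its share over all probes was not counted. Acot5, on the far side of Acot3, stayed between -0.16 and 0.12 on all 34 arrays, at a signal close to the negative-control limit.

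Outside the cluster, Acot8, the broad-range peroxisomal thioesterase, was lower in hypo pups of both sexes. Control males had 1.09, 1.16, 1.16 and 1.34 and hypo males 0.77, 0.88, 1.01 and 1.06. Control females had 1.01, 1.06, 1.22 and 1.30 and hypo females 0.75, 0.85, 0.88, 0.94 and 0.96. The groups did not overlap in either sex, and the direction was opposite to that of Acot3. How many of all probes separate in this way was not counted, so nothing is read from the separation. The log2 fold-changes were -0.26 (SE 0.10, limma adjusted p = 0.712) and -0.27 (SE 0.07, limma adjusted p = 0.229), and neither passed.

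Acot7, an enzyme best known from brain, had log2 fold-changes between -0.07 and 0.12 in all comparisons, with SE of 0.07 to 0.08. All hypo males lay above all control males for Acot7, by a mean of 0.12 (SE 0.08) that was not called. Acot12, the acetyl-CoA hydrolase of liver cytosol, varied widely within groups, with an SD of up to 0.54 in hyper females. Its hypo means lay below control by log2 differences of -0.23 (SE 0.23) in males and -0.42 (SE 0.27) in females, and hypo+ exceeded hypo by 0.60 (SE 0.23) and 0.73 (SE 0.29), with overlap in each.

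Leaving Acot3 aside, 0 of the other 8 member probes were called in hypo versus control in either sex, where 0.0971% of all probes in males and 0.155% in females were called. At an unadjusted limma p under 0.05 the counts were 3 and 2 of 8, where 5.18% and 4.72% of all probes passed. In hypo+ versus control 0 of the other 8 were called in either sex, and 0 of 8 passed at an unadjusted limma p under 0.05. The shares of all probes called were 0.0267% in males and 0.0219% in females, and 7.56% and 4.79% passed unadjusted.

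**Figure D2:**
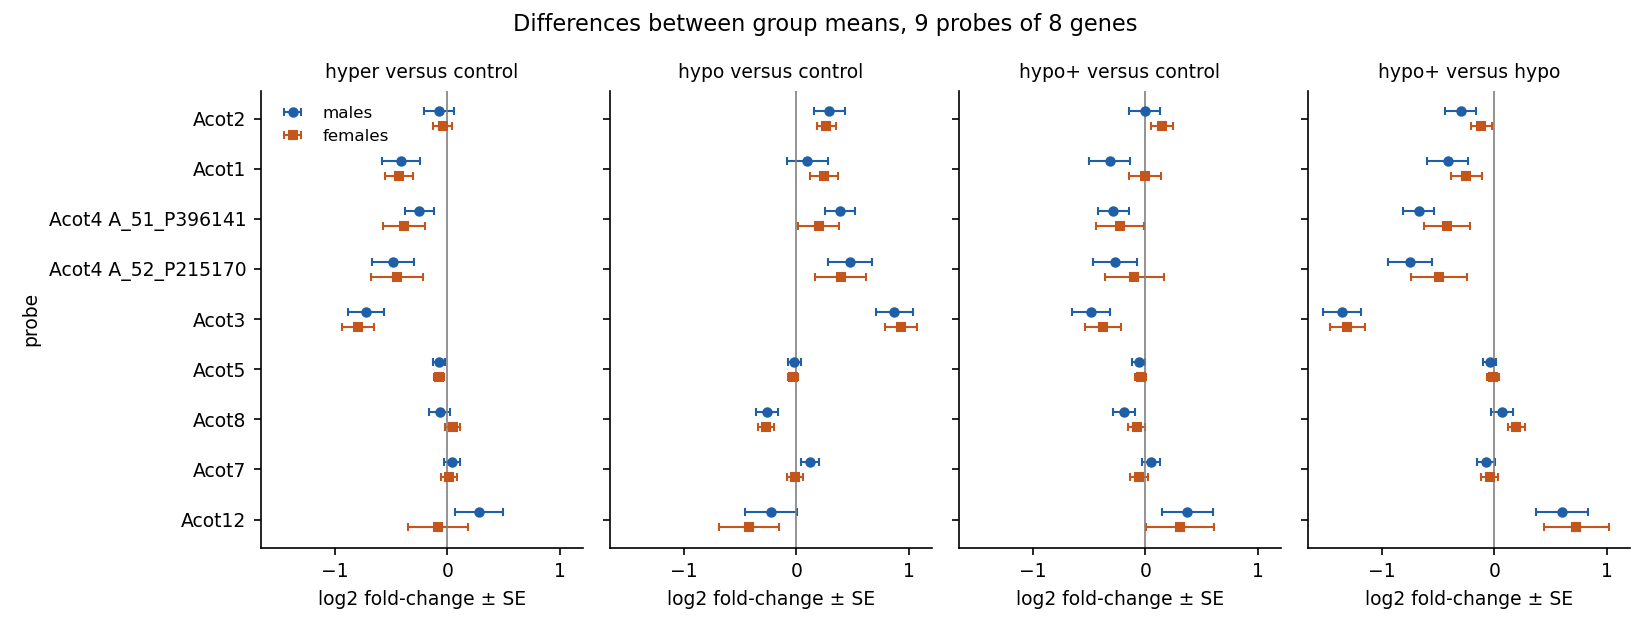
Log2 fold-change with SE of the 9 member probes in 4 comparisons, circles for males and squares for females, with clustered genes in chromosomal order at the top. Acot3, both Acot4 probes, Acot1 and Acot2 lie below 0 in hyper and above 0 in hypo pups, with Acot2 close to 0 in hyper pups. Acot5 and Acot7 stay near 0, and Acot8 and Acot12 lie below 0 in hypo pups.

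**Figure D3:**
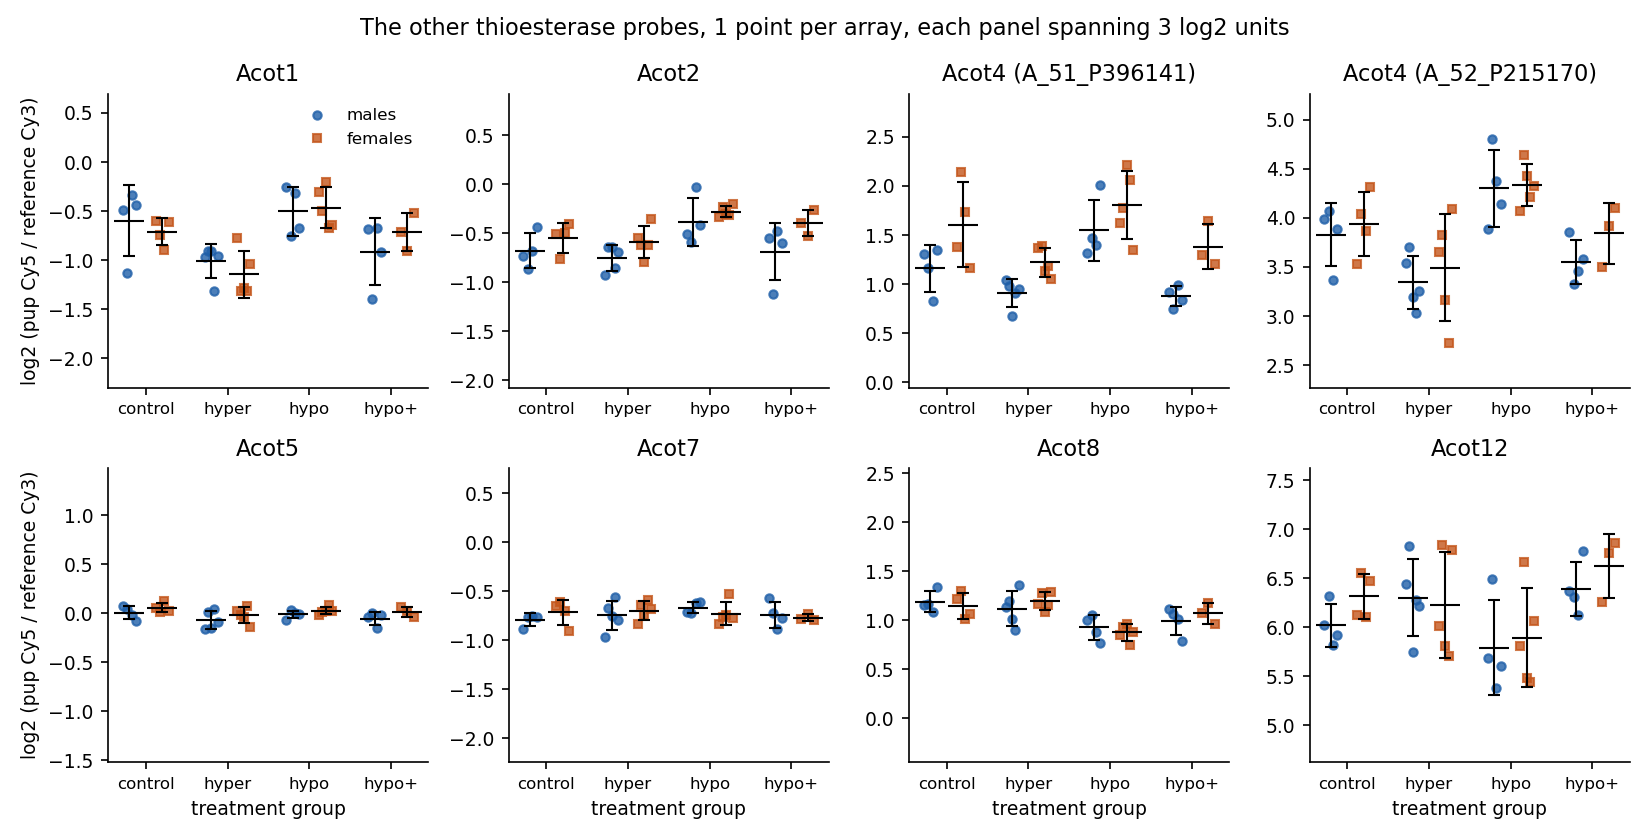
Log2 Cy5/Cy3 on each array for the 8 probes other than Acot3, by treatment and sex, with black bars for the mean and SD and an axis of the same length in each panel. Hypo females lie wholly above control females for Acot2 and wholly below them for Acot8, and most other groups overlap. The share of all probes that separate in this way was not counted.

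The 3 nearest measured genes on either side of the cluster were compared as neighbours. Papln, Numb and Riox1 on one side and Dnal1, Pnma1 and Ptgr2 on the other had hyper log2 fold-changes of -0.13 to 0.16 and hypo log2 fold-changes of -0.22 to 0.18 over both sexes. None was called against control in either sex (lowest limma adjusted p = 0.672, in Ptgr2, an enzyme of prostaglandin reduction), where 0.0219% to 0.158% of all probes were. Acot6, the last thioesterase of the cluster, had no matched probe.

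**Figure D4:**
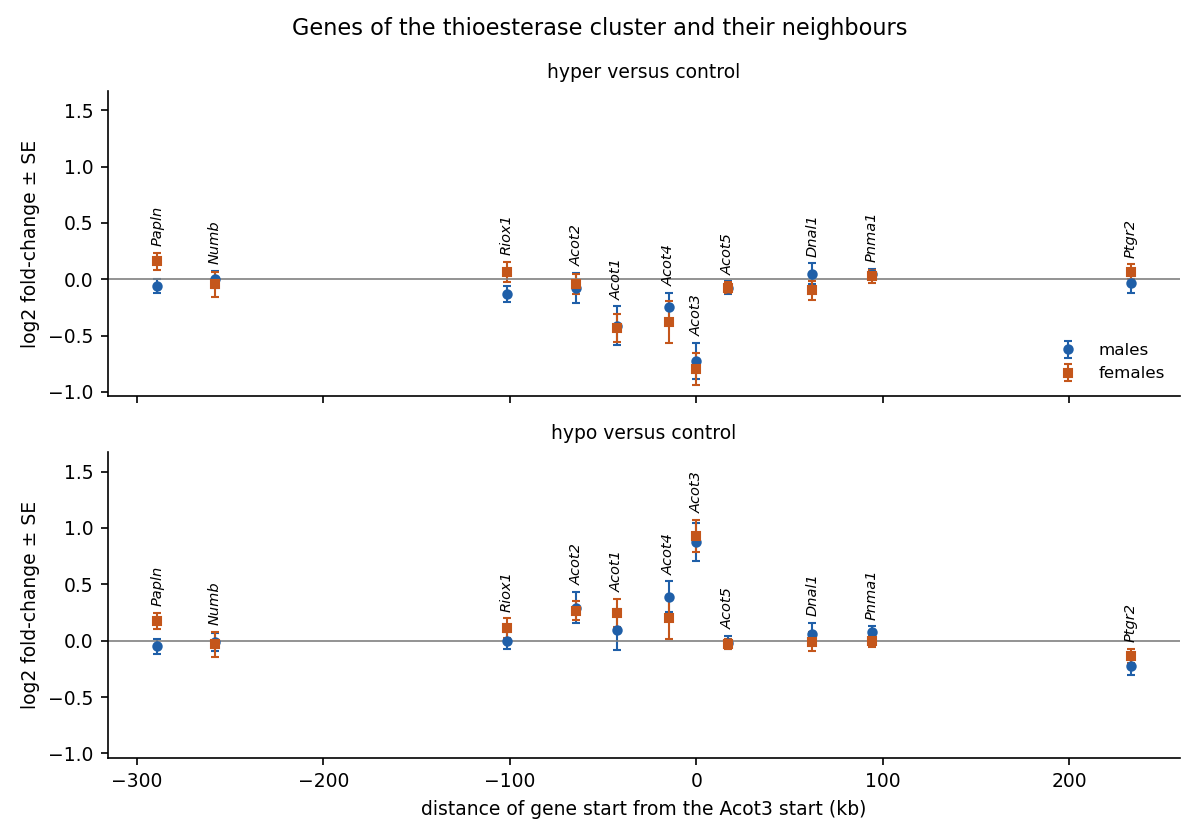
Log2 fold-change with SE of each measured gene of the cluster and its flanks against the distance of the gene start from that of Acot3, in kb, for hyper and hypo versus control, circles for males and squares for females. Acot3 lies farthest from 0 in both panels, and the flanking genes lie between -0.22 and 0.18. The Acot4 (first probe), Acot1 and Acot2 values lie on the same side of 0 as those of Acot3, with Acot2 close to 0 in hyper pups.

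The Acot3 profile over the 34 arrays was most like that of Slc41a3 (a magnesium transporter, Pearson r = 0.83), followed by Acot4 (r = 0.82 with its first probe and 0.80 with its second), Daam1 (r = 0.82), Dclre1a (r = 0.81) and Rbfox2 (r = 0.81), among 17987 named probes above the negative-control limit on all arrays. The least like were Nudt7 (r = -0.86), Trp53inp2 (r = -0.86) and Slc23a1 (r = -0.86). These correlations pool all treatments and both sexes, share 1 reference RNA and are descriptions. Of the other members, Acot2 had r = 0.72 with Acot3, Acot1 0.63, Acot5 0.41, Acot7 0.10, Acot12 -0.27 and Acot8 -0.41.

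Other enzymes that form or use acyl-CoA were followed in lists. Of 24 measured genes of peroxisomal acyl-CoA oxidation, Nudt7 was called higher in hyper males and Abcd3 higher in hyper females, Abcd3 was called lower in hypo males, and both were called lower in hypo females. The shares of all probes called were 0.0753% and 0.158% in hyper and 0.0971% and 0.155% in hypo males and females. Nudt7, a peroxisomal enzyme that degrades coenzyme A and its esters, differed from control by 0.91 (SE 0.16, limma adjusted p = 0.0396) in hyper males and 0.79 (SE 0.15, limma adjusted p = 0.0511) in hyper females, and by -0.89 (SE 0.17, limma adjusted p = 0.0609) and -1.12 (SE 0.15, limma adjusted p = 0.00428) in hypo males and females. Abcd3, the carrier of acyl-CoA into peroxisomes, differed by 0.32 (SE 0.09, limma adjusted p = 0.547) and 0.39 (SE 0.06, limma adjusted p = 0.0119) in hyper and by -0.62 (SE 0.09, limma adjusted p = 0.0161) and -0.53 (SE 0.06, limma adjusted p = 0.000614) in hypo pups. Both ran opposite to Acot3. The list medians were 0.02 and -0.06 in hyper and 0.08 and 0.00 in hypo males and females, beside medians of all probes between -0.01 and 0.00.

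None of 25 genes of mitochondrial beta-oxidation, 21 acyl-CoA synthetases, 13 other thioesterases or 19 genes of PPAR alpha and omega-hydroxylation was called against control in either sex. Only 0.0219% to 0.158% of all probes were called in these comparisons, so nothing is read from the counts of 0. The other thioesterases had list medians of -0.03 to 0.02 against control, and Acot9, Acot10, Acot11, Acot13 and Baat (which conjugates bile acids) differed from control by log2 differences of -0.16 to 0.27. For hyper versus control in females the PPAR alpha list had a median of -0.19 with 17 of 19 genes below 0, and in males a median of -0.02 with 12 of 19 below 0. In the same comparison the hepatocyte markers had medians of -0.19 (8 of 8 below 0) in females and 0.08 (1 of 8) in males, and the pancreatic markers -0.70 and -2.06 (10 of 10 below 0 in each). The part of either in the list's values was not tested. Its classical targets Cyp4a10 and Cyp4a14 differed by -0.08 (SE 0.15) and -0.02 (SE 0.11) in hyper males, by -0.27 (SE 0.17) and -0.25 (SE 0.15) in hyper females, and by -0.07 to 0.21 in hypo pups. Pdk4, Vnn1, Ehhadh, Cpt1a and Acsl1 were likewise not called, with log2 fold-changes of -0.34 to 0.24 over the 3 comparisons with control. The hormone response in hypo pups was visible in Dio1, the type 1 deiodinase, which fell by a log2 fold-change of -1.46 (SE 0.20, limma adjusted p = 0.0124) in males and -1.77 (SE 0.27, limma adjusted p = 0.00922) in females. Dio1 was in a list of 8 hormone response controls, of which 1 in males and 2 in females were called in hypo pups. The shares of all probes called there were 0.0971% in males and 0.155% in females. In hyper pups 0 of the 8 were called in either sex, where 0.0753% of all probes in males and 0.158% in females were. Dio1 differed by 0.37 (SE 0.19) in males and 0.29 (SE 0.27) in females. The 8 log2 fold-changes ran from -0.14 to 0.74 in hyper males, with 5 above 0. In hyper females they ran from -0.24 to 1.28, with 4 above 0.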

How the data were processed

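Liver RNA of 34 pups was hybridised on 2-colour arrays. The deposited scanner files hold median intensity of each spot in both dyes, extracted by the authors with Agilent Feature Extraction 10.1.1.1, and the scanner's own log10 ratio. A deposited table of the authors holds normalized log2 Cy5/Cy3, which correlated with the values used here at r = 0.992 to 0.996 and had column medians of -0.05 to -0.02, and it served as an alternative.

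Outlier spots (77 to 212 an array) were left out, median signals were loess-normalized within each array (span 0.3) without background subtraction, and spots of 1 probe were averaged. Fits used limma 3.58.1 in R 4.3.3 on the 4 groups of each sex separately, with Benjamini-Hochberg adjustment over 41174 probes and a threshold of 0.05. Arrays were grouped by the labels, each a separate animal, and the number of arrays limits the precision. A gene is named where it is a member, a flank of the cluster, a list gene fixed in the design, or among the 5 most and 3 least like Acot3. The members, lists and rules were chosen with earlier results of these data known. Symbols came from RefSeq accessions; 17800 of the 41174 probes had no single symbol. Scripts were tested on simulated data. Alternatives were other normalizations, the Cy5 channel alone, slide and scan blocks, fits of 2 groups or both sexes, a filter on dim probes, and leaving out arrays. A block on the litter prefix was run only for the comparisons of the sexes.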

Additional observations from a re-analysis of the deposited data

Results flagged for a closer look

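In 63 groups of 4 or 5 arrays, 1 array stood apart from the rest of its group in 2, and chance alone flags about 1 group in 20. Acot1 in hyper male 696 was -1.32, with the nearest hyper male at -0.97, so the gap took 0.844 of the range of the 5 values. Acot7 in control male 881 was -0.88, with the nearest control male at -0.76, and the gap took 0.905 of the range of the 4 values.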

How the results depend on the processing

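The lower Acot3 of hyper females (-0.80, 1 member called) kept its direction in every setting run (-0.95 to -0.54), but the count called was 0 with median centring (-0.66, limma adjusted p = 0.166), normexp background correction (-0.54, 0.468), the scanner's log ratios (-0.95, 0.0848), the Cy5 channel alone (-0.68, 0.120), a scan batch block (-0.80, 0.0618), a fit of only the 2 groups (-0.80, 0.0659), without the arrays high in pancreatic markers (-0.87, 0.0598) and without those high in adipocyte markers (-0.71, 0.0739), the last 2 chosen after seeing the data. Leaving out 1 array gave -0.87 to -0.71, limma adjusted p 0.0277 to 0.143 and a count of 0 to 1, with the call lost without control female 523, 394 or 882 or hyper female 585, 499, 861 or 783. In hyper males the settings gave -1.002 to -0.60 with limma adjusted p of 0.0502 to 1, and leaving out 1 array gave -0.88 to -0.62, limma adjusted p 0.0457 to 0.524 and a count of 0 to 1. For hypo versus control, where Acot3 is described only, 0 of the other 8 member probes were called in either sex in any setting. The count that includes Acot3 shifted between 0 and 1 with the setting in each sex, and nothing is read from it. Acot3 itself moved from 0.87 to 0.59 in hypo males and from -0.49 to -0.77 in hypo+ males, each against control, without the pancreatic-marker arrays, and from -0.38 to -0.14 in hypo+ females with normexp. For hypo+ versus hypo it moved from -1.36 to -1.78 in males with the scanner's log ratios, and from -1.31 to -1.05 with median centring and -1.06 with the scanner's log ratios in females. Leaving out 1 array gave 0.72 to 0.97 and 0.86 to 1.00 for hypo, -0.64 to -0.39 and -0.49 to -0.23 for hypo+, and -1.45 to -1.27 and -1.42 to -1.16 for hypo+ versus hypo, in males and females. The sex difference of 0.66 over all arrays is described only, since they include the arrays that chose Acot3. It was not past the threshold with the scanner's log ratios (0.76), and was 0.62 to 0.70 when 1 array was left out. On the control and hyper arrays alone it was 0.60 and did not pass (limma adjusted p = 0.118). The promoter count of repeats with a 1-base spacer fell from 2 to 1 when 1 mismatch was allowed. No result called before or after a change of setting changed sign, and no other member gained or lost a call against control. Uncalled differences of the other members from control changed sign in 34 of 672 values under the other settings. For Acot12 in hyper females this held in 6 of 14 settings (-0.08, up to 0.28). The causes of these shifts were not tested. No paired analysis was possible because the animal numbers, which serve as replicate numbers, are not shared between groups. Slide blocks were run in its place. The litter prefix, read from the animal numbers, was a block only in the comparisons of the sexes. Within each sex every array had its own prefix, so the treatment fits held no litter mates to block on, as far as the prefix marks a litter. The dim reference signal of Acot3 and the low signal of Acot5 limit what these arrays resolve.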
